A study of Mus musculus with 2 samples.

Results

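A group of 8 genes of the interferon response and of class I antigen presentation was followed through heart muscle cells of the adult mouse: Isg20, Ube2l6, B2m, H2-K1, H2-D1, Ifitm3, Bst2 and Isg15. They were picked by name, after Isg20 and Ube2l6 had been seen among the genes highest in atrial-labelled relative to ventricular-labelled cells of these tables, so the values of that contrast are given as a description. All 8 were among the 24522 gene IDs of the multichamber study and 7 were among the 22679 of the live and fixed study, where Bst2 was not analysed here. The animals were wild-type C57BL/6 mice, about 3 months old in the multichamber study and adult in the other. Hearts were perfused with collagenase and protease for 9 minutes at 1.5 mL per minute, and single muscle cells were isolated with a large-particle sorter and read by 3' tag counting with a 10-base unique molecular identifier (UMI). The multichamber cells were unfixed and carried the chamber labels LA and RA (left and right atrium) and LV and RV (left and right ventricle), in 4 libraries named A to D. The other study compared ventricular cells sorted live with cells fixed before sorting by 800 µL of 100% ethanol mixed into 200 µL of cell suspension. No animal is named in the labels, so cells cannot be assigned to animals, each pool of cells is 1 sample, and no p-value is given.

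Interferons signal through receptors and Jak kinases to Stat and Irf transcription factors, which bind the interferon-stimulated response element (ISRE) in the promoters of their target genes. Isg20 encodes an exonuclease that degrades RNA. Isg15 encodes a ubiquitin-like protein that is attached to other proteins, and Ube2l6 encodes the conjugating enzyme that carries it. Ifitm3 encodes a membrane protein that restricts the entry of viruses, and Bst2 (tetherin) one that holds budding virus particles at the cell surface. H2-K1 and H2-D1 encode classical class I heavy chains and B2m the light chain they share; together they present peptides to cytotoxic T cells. Class I molecules are carried by most nucleated cells and are high in vascular endothelium, while adult cardiomyocytes express little. Red cell precursors pass through an anucleate reticulocyte stage that still holds haemoglobin RNA.

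The promoters of the 8 genes differed in whether they held the ISRE core, searched as the exact string GAAANNGAAA on both strands. The windows ran from 250 bases before to 50 bases after 1 RefSeq start per gene (build GRCm38.p6, all 8 genes matched). Isg20 has 3 listed starts and H2-K1 has 2, so their windows rest on 1 of several. The core was found in 4 of the 8, B2m, Ifitm3, Bst2 and Isg15, against 943 of 27025 promoters of the same length (3.49%). The exact string was not found in the windows of Isg20, Ube2l6, H2-K1 or H2-D1. An exact search misses elements that vary from the string, so this does not show that these promoters lack an ISRE. The stretches below show the core in capitals where there is one, with the upstream window of Isg20 and Ube2l6 for comparison, because these 2 genes had a pattern of their own in the counts.

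Isg15, chr4:156200857-156200926, minus strand: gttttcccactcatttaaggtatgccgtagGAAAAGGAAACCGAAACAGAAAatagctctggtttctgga
Bst2, chr8:71537563-71537632, minus strand: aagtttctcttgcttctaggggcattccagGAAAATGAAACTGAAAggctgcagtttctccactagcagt
B2m, chr2:122147518-122147587, plus strand: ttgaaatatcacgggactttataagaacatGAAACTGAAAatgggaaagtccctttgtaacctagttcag
Ifitm3, chr7:141010716-141010742, minus strand: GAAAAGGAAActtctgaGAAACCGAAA
Isg20, chr7:78913344-78913413, plus strand: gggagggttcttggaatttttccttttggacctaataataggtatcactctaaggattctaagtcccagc
Ube2l6, chr2:84798748-84798817, plus strand: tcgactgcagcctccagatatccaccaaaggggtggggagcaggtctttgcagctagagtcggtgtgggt

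Isg15 had 3 overlapping cores starting 78 bases before its start, Bst2 2 overlapping cores from 130 bases before and B2m 1 from 139 bases before. The 2 cores of Ifitm3 lay just after its start. The exact string AGATAA, a form of the erythroid GATA motif, was searched on both strands in the same windows. It was in 0 of the 8 and in 11.4% of all promoters. This search too misses elements that vary from the string, so it does not show that these promoters lack a GATA site. A match is a stretch of letters and not a measured binding site.

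Of the 332 labelled multichamber cells, 281 had at least 1000 gene UMIs and 500 genes: 56 LA, 44 RA, 91 LV and 90 RV, with median gene UMIs of 16146, 4436.5, 40953 and 50503. All 84 6-base cell barcodes occurred in more than 1 library. The muscle markers made up between 7.02 and 9.38% of nuclear-encoded UMIs in the 4 pools. Chamber markers bore out the labels only in part. Myl7, the atrial light chain, had 81 UMIs (57.7 CPM, 11 cells, all LA, with 63 UMIs in 1 mesothelial-rich cell) in atrial-labelled and 3 UMIs (0.54 CPM) in ventricular-labelled cells, and Sln, an atrial calcium pump regulator, 4.99 and 0.72 CPM. Both had 0 UMIs in RA. Myl4, also an atrial light chain, went against the labels. It had 2 UMIs in 1 atrial-labelled cell (1.42 CPM) and 29 UMIs in 14 ventricular-labelled cells (5.22 CPM). Myl2, the ventricular light chain, stood at 10125 CPM (UMIs scaled to 1000000 nuclear-encoded UMIs) in atrial-labelled and 10410 CPM in ventricular-labelled cells, and Nppa, the atrial natriuretic peptide, had 0 UMIs in the former (up to 2.14 CPM allowed by a count of 0) and 2 in the latter. Chamber names below are therefore labels only. A cell was called haemoglobin-rich where more than 2% of its nuclear-encoded UMIs came from Hba-a1, Hba-a2, Hbb-bs and Hbb-bt. Such cells numbered 26 (LA), 34 (RA), 19 (LV) and 15 (RV), 82 of all 281 cells lay between 1 and 3%, and the haemoglobin-rich cells were shallower (median gene UMIs 11618 against 42024).

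The 8 genes split into 2 patterns and a remainder too rare to describe. Isg20 and Ube2l6 were high in the cells that carried haemoglobin RNA. B2m, H2-K1, H2-D1, Ifitm3 and the scarce Bst2 were concentrated in a minority of cells that carried RNA of endothelial, mural, fibroblast or mesothelial type. Isg15 gave 5 UMIs in all 281 cells. UMI totals of the others were 228 for Isg20, 215 for Ube2l6, 803 for B2m, 447 for H2-K1, 495 for H2-D1, 351 for Ifitm3 and 45 for Bst2.

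Isg20 (gene ID ENSMUSG00000039236, GRCm38 chromosome 7, 78913424 to 78920396, plus strand) rose steeply with haemoglobin. Its level was 8.45 CPM (5.36 to 12.7) in the 96 cells with at most 0.5% haemoglobin, 17.7 CPM (13.2 to 23.3) in the 91 between 0.5 and 2%, 69.4 CPM (55.5 to 85.8) in the 53 between 2 and 10%, and 526 CPM (409 to 665) in the 41 above 10%. All intervals are exact 95% intervals of the summed counts and cover counting error only. The 4 intervals of Isg20 did not overlap. These classes pool the 4 chamber labels, so they also mix atrial-labelled and ventricular-labelled cells in unequal parts. Ube2l6 (ENSMUSG00000027078, chromosome 2, 84798828 to 84810335, plus strand) stood at 21.3 CPM (16.2 to 27.6), 10.1 CPM (6.74 to 14.5), 54.7 CPM (42.4 to 69.5) and 465 CPM (356 to 597) in the same 4 classes. Its lowest class stood above the next, and 1 LA cell of library C held 28 of the 58 UMIs there. B2m, by contrast, was at 123, 129, 63.7 and 152 CPM, with no ordered rise.

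**Figure D1:**
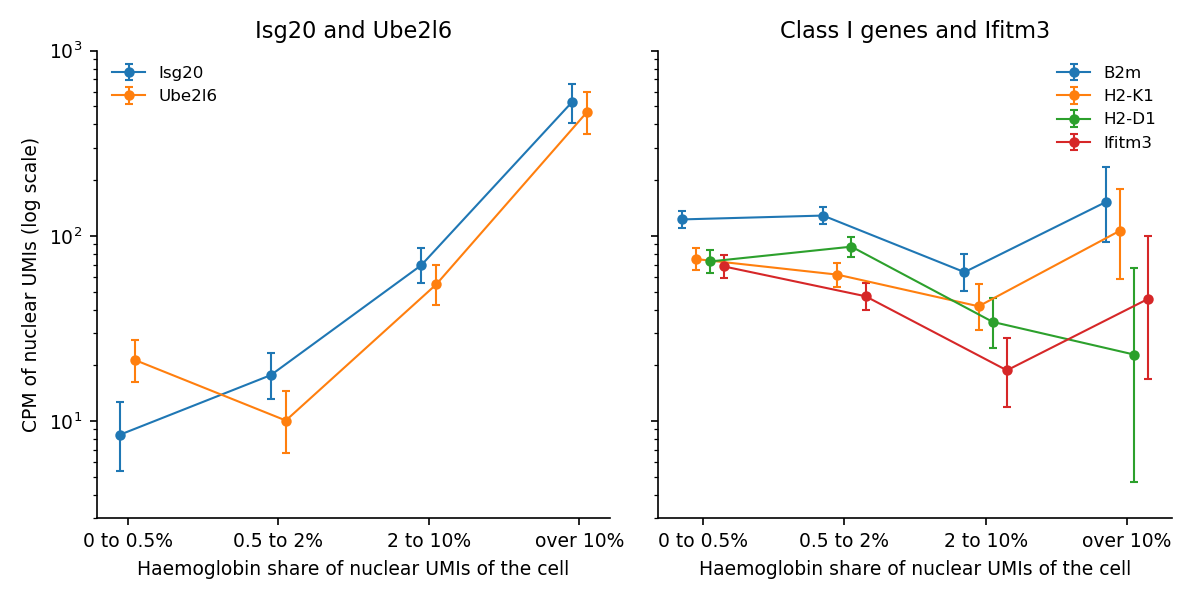
Level of 6 genes (CPM of nuclear-encoded UMIs, log axis) in multichamber cells grouped by the haemoglobin share of the cell; points are summed pools and bars exact 95% counting intervals. Isg20 and Ube2l6 reached 526 and 465 CPM in the class above 10%, while B2m, H2-K1, H2-D1 and Ifitm3 showed no ordered rise.

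Within the atrial-labelled cells Isg20 was at 217 CPM (93 UMIs) in the 60 haemoglobin-rich and 22.5 CPM (22 UMIs) in the 40 haemoglobin-poor cells, a 9.64-fold difference (6.01 to 16.1). Within the ventricular-labelled cells it was at 65.8 CPM in 34 rich and 11.2 CPM in 147 poor cells, 5.85-fold (3.97 to 8.64). Ube2l6 was 3.02-fold higher in the rich atrial-labelled cells (143 against 47.1 CPM; 2.03 to 4.54) and 8.15-fold higher in the rich ventricular-labelled cells (72.2 against 8.86 CPM; 5.44 to 12.3). Without the 3 cells that held more than 0.5% mesothelial RNA, the atrial-labelled ratio of Ube2l6 was 16.8-fold (7.68 to 43.6) and that of Isg20 14.3-fold (7.79 to 28.7). Of all genes with at least 30 UMIs, 10.8% were at least 1.5-fold higher in the rich atrial-labelled cells and 10.5% in the rich ventricular-labelled cells. Isg20 ranked 21st of 5715 genes in the first comparison and 21st of 10813 in the second; Ube2l6 ranked 101st and 7th.

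The ratio was above 1 within each chamber label, library and depth band over all kept cells. The library and depth-band ratios pool the 4 labels. Of the 94 rich cells 60 were atrial-labelled, and of the 187 poor cells 147 were ventricular-labelled. Those ratios therefore also carry the label contrast from which the 2 genes were picked. By chamber label the rich to poor ratio of Isg20 was 8.84 (LA), 10.8 (RA), 3.50 (LV) and 8.98 (RV). By library it was 14.2-fold in A, 8.07-fold in B, 5.59-fold in C and 15.5-fold in D. Ube2l6 had ratios of 2.18, 9.62, 3.21 and 13.8 for the 4 labels in that order, and 7.86-fold, 9.20-fold, 3.32-fold and 11.2-fold in libraries A to D. All 16 of these lower counting limits were above 1. The LV value of Isg20 rested on cells that carried marker RNA of other heart cells: without the 66 such cells described further on, the rich LV cells had 2 Isg20 UMIs in 14 cells (4.84 CPM) and the poor ones 10.5 CPM, the opposite direction. Isg20 was then at 204 and 9.81 CPM (LA), 261 and 22.9 CPM (RA), and 113 and 10.2 CPM (RV). Depth moves with haemoglobin in these cells (Spearman rho -0.45 over 100 atrial-labelled cells, which share libraries), so the ratio was also taken within depth bands. Isg20 was 7.24-fold higher (1.90 to 61.5) among cells of 1000 to 5000 gene UMIs, 4.45-fold (1.79 to 13.2) from 5000 to 20000, and 5.85-fold (4.17 to 8.23) above 20000. Ube2l6 was 4.37-fold, 33.9-fold (1 UMI in the poor cells) and 3.79-fold higher in the same bands.

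Isg20 was also set against the haemoglobin UMIs of the same cells. With the labels pooled, the quotient was alike in rich and poor cells. It varied between labels and was higher in the lowest haemoglobin class, so Isg20 was not proportional throughout. There were 1.95 Isg20 UMIs per 1000 haemoglobin UMIs (1.65 to 2.28) in the rich cells and 1.90 (1.49 to 2.38) in the poor cells of the 4 chambers together. By chamber label it was 2.69 (LA), 2.05 (RA), 1.55 (LV) and 1.68 (RV). It was 1.46, 1.88 and 2.04 in the 3 upper haemoglobin classes, and 5.62 (3.56 to 8.44) in the lowest, where haemoglobin UMIs were few. Ube2l6 had 1.62 UMIs per 1000 haemoglobin UMIs (1.35 to 1.93) in rich and 2.23 (1.79 to 2.76) in poor cells. The same quantity for B2m fell from 18.1 in poor to 1.24 in rich cells, so B2m was not proportional to haemoglobin.

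Single cells did not all carry the pattern. Isg20 was detected in 33 of 94 rich cells (35.1%) and in 36 of 187 poor cells (19.3%), although the poor cells were deeper. Ube2l6 was detected in 32 of the rich and 35 of the poor cells. Thinned to 5000 UMIs per cell, with shallower cells left out, Isg20 remained detectable in 4 of 25 rich and 1 of 29 poor atrial-labelled cells and in 3 of 33 rich and 4 of 143 poor ventricular-labelled cells; without thinning the same cells gave 44% and 24.1%, and 27.3 and 18.9%. The thinned counts are too small to order. Both genes were found together in 21 cells, 14 of them haemoglobin-rich, of 69 with Isg20 and 67 with Ube2l6. Ube2l6 was detected in 30.4% of the cells with Isg20 and in 21.7% of those without.

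**Figure D2:**
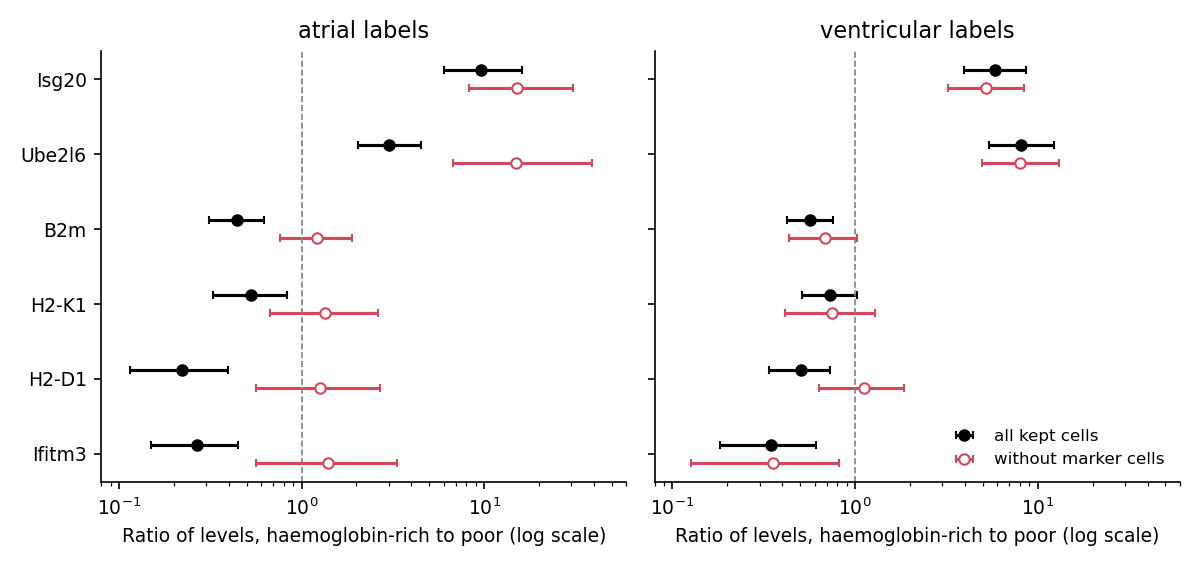
Ratio of levels (log axis) in haemoglobin-rich to haemoglobin-poor cells for 6 genes, with exact 95% counting intervals; filled points are all kept cells and open points leave out cells with more than 0.1% endothelial, mural, fibroblast or mesothelial RNA. Isg20 and Ube2l6 lay above 1 in all 4 settings, and the class I genes of the atrial-labelled cells moved from below 1 to near 1 when those cells were left out.

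The class I genes and Ifitm3 went the other way. In atrial-labelled cells B2m (ENSMUSG00000060802, chromosome 2, 122147686 to 122153083, plus strand) was at 98.2 CPM in rich and 220 CPM in poor cells, 2.24-fold lower (1.61 to 3.20). H2-K1 was 1.88-fold lower (56.1 against 106 CPM), H2-D1 4.49-fold lower (30.4 against 136 CPM) and Ifitm3 3.73-fold lower (37.4 against 139 CPM). So 4 of the 6 measured members were at least 1.5-fold lower in the rich atrial-labelled cells, where 35.1% of all genes were, and 2 were higher. Endothelial markers were lower too in the rich ventricular-labelled cells (8 of 10 genes), as were mural markers (7 of 8), and mesothelial markers in the rich atrial-labelled cells (6 of 6). Endothelial markers in the rich atrial-labelled cells went the other way, with 2 of 4 measured higher (Fabp4 4.56-fold and Ptprb 3.35-fold) and 1 lower (Kdr, 4.63-fold). Their part in the result was not tested. In ventricular-labelled cells 4 of 7 measured members were lower, against 34.0% of all genes: B2m (1.75-fold), H2-D1 (1.99-fold), Ifitm3 (2.87-fold) and Bst2 (3.51-fold, 0.90 to 30.1, with 2 UMIs in rich cells). H2-K1 there was at 44.2 against 60.3 CPM, within counting error. Without the 66 cells described next, the intervals of B2m, H2-K1 and H2-D1 held 1 under both labels, and Ifitm3 stayed lower in the rich ventricular-labelled cells (0.36-fold, 0.13 to 0.81). The median log2 ratio of the measured members was -1.04 in atrial-labelled and -0.81 in ventricular-labelled cells, beside -0.28 and -0.27 over all genes.

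Most of the UMIs of these 5 genes came from few cells. Cells with more than 0.1% of nuclear-encoded UMIs from any of the endothelial, mural, fibroblast or mesothelial marker lists, a threshold set after the data were seen, numbered 66 of 281 and held 23.1% of the nuclear-encoded UMIs. They held 63.4% of the B2m UMIs, 66.0% of H2-K1, 74.3% of H2-D1, 69.8% of Ifitm3 and 71.1% of Bst2. Their share of Isg20 was 23.2%, and of Ube2l6 35.8%. In level, B2m was 5.76-fold higher in these cells (317 against 54.9 CPM; 4.98 to 6.68), H2-K1 6.46-fold (184 against 28.4 CPM), H2-D1 9.65-fold (229 against 23.7 CPM) and Ifitm3 7.70-fold (152 against 19.8 CPM). Isg20 over all 4 labels was at 33.0 against 32.7 CPM (0.73 to 1.38). Within the ventricular-labelled cells alone it was 1.43-fold higher in the marker cells (0.94 to 2.15), and 2.66-fold higher (43.9 against 16.5 CPM; 1.72 to 4.02) in the 25 cells with more than 0.1% endothelial RNA, which held 30.1% of its UMIs and 13.9% of the RNA. Within the atrial-labelled cells the marker cells had a ratio of 0.97 for Isg20 (0.54 to 1.66) and 5.28 for Ube2l6 (3.54 to 7.86). Median gene UMIs were close with the 4 labels pooled, 31877.5 in the marker cells and 35773 in the rest. They were 40380 and 47514 among ventricular-labelled cells. Among atrial-labelled cells they were 3813.5 and 8029.5, and 12 of the 16 marker cells there were haemoglobin-rich. The part of depth was not tested.

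**Figure D3:**
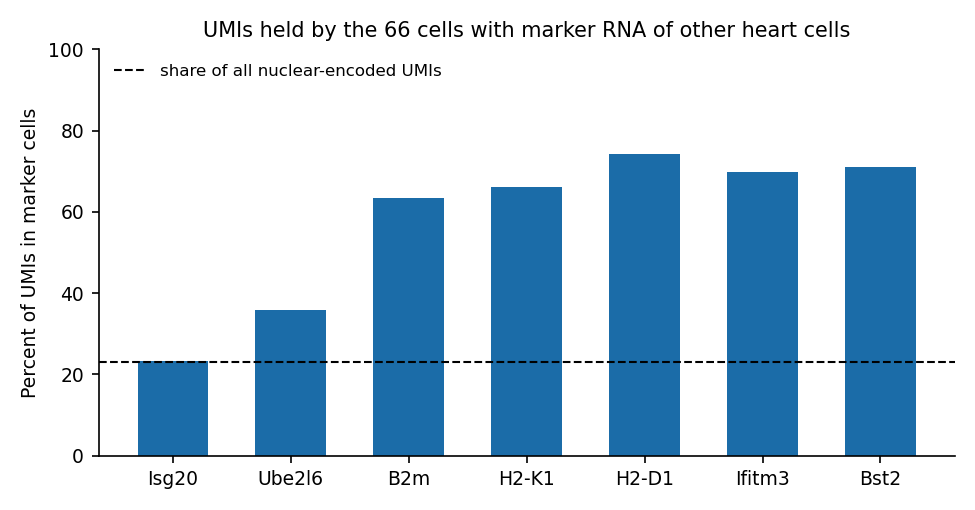
Percent of each gene's UMIs (bars) found in the 66 multichamber cells with more than 0.1% RNA of endothelial, mural, fibroblast or mesothelial markers; the dashed line is the share of all nuclear-encoded UMIs in those cells, 23.1%. Isg20 lies at the line when the labels are pooled (within ventricular-labelled cells it is 32.7% against 25.3% of the RNA), and the class I genes, Ifitm3 and Bst2 lie between 63.4 and 74.3%.

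A handful of cells stood out within that set. An LV cell of library A with 91793 gene UMIs, 0.783% of them endothelial among nuclear-encoded UMIs, held 98 UMIs of B2m, 48 of H2-K1, 114 of H2-D1, 38 of Ifitm3 and 10 of Bst2. An RV cell of library C, with 0.762% endothelial RNA, held 33 UMIs of H2-K1 and 13 of Bst2. An LA cell of library B held 77 of B2m, 58 of H2-K1, 94 of H2-D1 and 85 of Ifitm3, and an LA cell of library C held 80 of B2m, 19 of H2-K1, 19 of H2-D1 and 36 of Ifitm3; their mesothelial shares were 0.983 and 1.01%. These 4 cells were low in Myl2 (680 to 1433 CPM) and, among them, the 2 LA cells had 4.01 and 3.60% mitochondrial UMIs. The top Isg20 cells, in LA of library A, RV of library C and LV of library A, had 3.35, 6.85 and 4.81% haemoglobin and Myl2 between 7540 and 10519 CPM. The LV cell among them also carried 0.157% endothelial and 0.488% fibroblast RNA, so it is 1 of the 66.

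By chamber label, 6 of the 7 measured members were at least 1.5-fold higher in atrial-labelled cells, beside 17.0% of 11683 genes. Members were listed with this contrast known, so nothing is read from the count. Isg20 was at 81.9 CPM in atrial-labelled and 20.3 CPM in ventricular-labelled cells, 4.03-fold (3.08 to 5.27), and Ube2l6 at 76.2 and 19.4 CPM, 3.92-fold (2.97 to 5.17). Both were higher in the atrial-labelled cells of 4 of 4 libraries. Across libraries Isg20 ran from 63.7 to 175 CPM in atrial-labelled and from 10.2 to 31.0 CPM in ventricular-labelled cells. Ube2l6 ran from 66.3 to 164 and from 10.6 to 33.6 CPM, with no overlap for either gene. The 2 genes were picked from this contrast, and the share of all genes with these library patterns is not given. Nothing is therefore read from those patterns. Haemoglobin moved with the labels, taking 3.44% of nuclear-encoded UMIs in atrial-labelled and 1.25% in ventricular-labelled cells. Among the haemoglobin-poor cells alone, Isg20 was at 22.5 and 11.2 CPM and Ube2l6 at 47.1 and 8.86 CPM. The 2 mesothelial-rich LA cells held 11 and 28 of the 46 Ube2l6 UMIs of the poor atrial-labelled cells. Without them Ube2l6 was at 8.55 against 8.86 CPM and Isg20 at 14.7 against 11.2 CPM. The part of haemoglobin RNA in the label difference was not tested further.

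**Figure D4:**
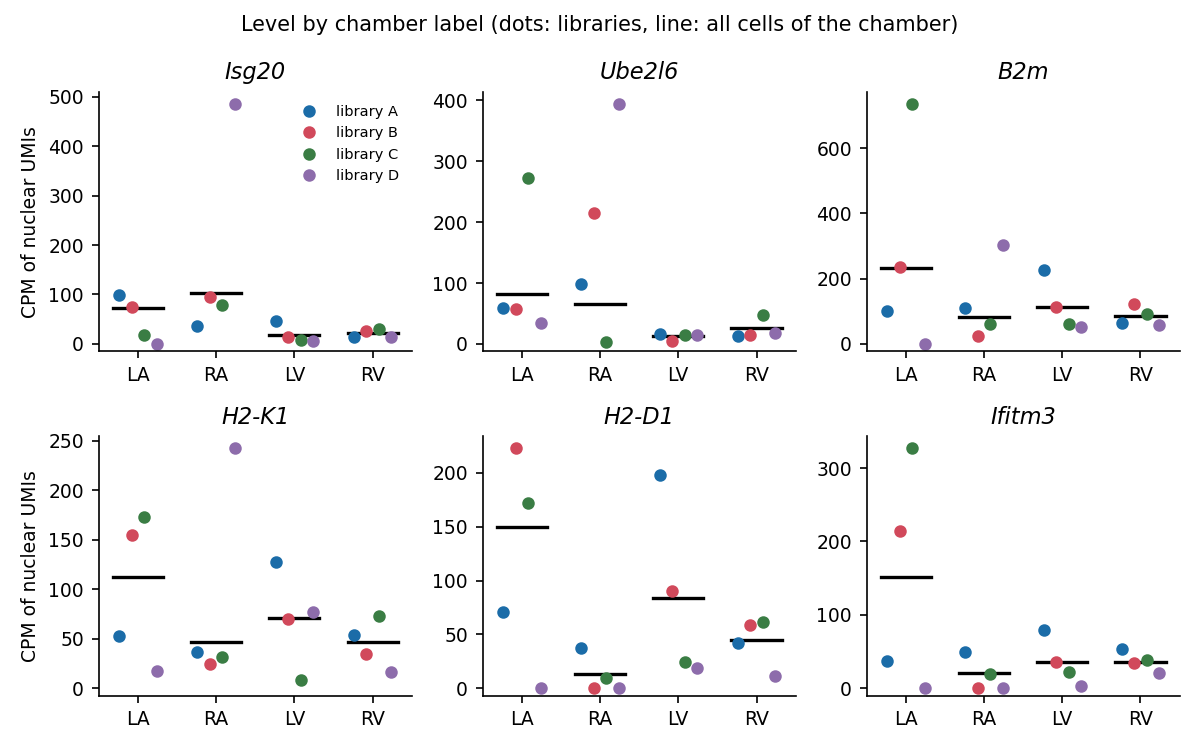
Level (CPM of nuclear-encoded UMIs) of 6 genes by chamber label; dots are the 4 libraries and lines the pool of all cells of the label. LA and RA dots rest on 5 to 23 cells each and scatter most, as in RA where Isg20 ran from 36.9 to 485 CPM.

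Single-library values show how uneven the atrial labels are. Isg20 in libraries A to D was at 98.2, 75.1, 18.2 and 0 CPM for LA cells, and 36.9, 95.5, 79.6 and 485 CPM for RA cells. In LV it was at 45.7, 13.3, 7.72 and 6.24 CPM and in RV at 14.7, 26.4, 29.1 and 13.7 CPM. The LA value of 0 rests on 5 cells and the RA value of 485 CPM on 8 cells with 16 Isg20 UMIs. Ube2l6 in LA was at 58.3, 56.9, 272 and 34.3 CPM, and in RA at 98.4, 215, 3.19 and 394 CPM. In LV it was at 16.2, 5.0, 13.9 and 14.0 CPM and in RV at 13.0, 15.3, 47.4 and 17.9 CPM. B2m ranged from 0 to 736 CPM over the LA libraries, from 23.9 to 303 in RA, from 51.5 to 227 in LV and from 56.3 to 121 in RV, so the labels overlapped.

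The other 4 members with an atrial-labelled excess lost it when 3 cells were left out. B2m was at 183 CPM in atrial-labelled and 98.3 CPM in ventricular-labelled cells (1.86-fold), H2-K1 at 90.5 and 57.6 (1.57-fold), H2-D1 at 104 and 62.8 (1.66-fold) and Ifitm3 at 108 and 35.8 (3.02-fold). Without the 3 cells above 0.5% mesothelial RNA, 2 in LA and 1 in RA, each of these 4 genes was lower in the atrial-labelled cells: B2m by 1.25-fold (1.00 to 1.56), H2-K1 by 1.43-fold (1.06 to 1.97), H2-D1 by 2.37-fold (1.65 to 3.49) and Ifitm3 by 1.48-fold (1.01 to 2.26). Isg20 was then 3.99-fold (3.02 to 5.27) and Ube2l6 2.81-fold (2.05 to 3.85) higher. Leaving out instead all 66 cells with more than 0.1% marker RNA, B2m was 1.52-fold higher in the atrial-labelled cells (1.17 to 1.96), and the intervals of H2-K1, H2-D1 and Ifitm3 held 1. Endothelial markers, which accompany these genes in the ventricular-labelled cells, were at 0.0272% in atrial-labelled and 0.0594% in ventricular-labelled cells. The 2 LA cells held 77 and 80 of the 218 LA UMIs of B2m. Without the 3 cells, the rich to poor ratio of the atrial-labelled cells was 1.33 for B2m (0.87 to 2.02), 1.78 for H2-K1 (0.98 to 3.23), 1.25 for H2-D1 (0.57 to 2.65) and 1.93 for Ifitm3 (0.88 to 4.23).

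Between LA and RA, 4 of 6 measured members were at least 1.5-fold higher in LA, where 31.6% of all genes were, and 0 were lower, beside 17.4%. H2-D1 was 11.7-fold higher (140 against 6 UMIs), Ifitm3 7.15-fold (142 against 10 UMIs), B2m 2.81-fold (1.99 to 4.07) and H2-K1 2.40-fold (1.51 to 4.0). Without the 3 mesothelial-rich cells B2m was 0.99-fold (0.65 to 1.53), H2-K1 0.77-fold (0.42 to 1.40), Ifitm3 1.40-fold (0.62 to 3.48) and H2-D1 2.71-fold (1.09 to 8.01). Isg20 was at 71.8 CPM in LA and 102 CPM in RA, within counting error, and Ube2l6 at 81.4 and 65.9 CPM, also within it.

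Between LV and RV, 2 of 7 members were at least 1.5-fold higher in LV (16.9% of all genes) and 1 was lower (11.9%). H2-D1 was 1.89-fold higher (84.2 against 44.5 CPM; 1.52 to 2.37) and H2-K1 1.54-fold (70.9 against 46.2 CPM; 1.22 to 1.93). Without library A, which holds the endothelial-rich LV cell named above, H2-D1 was 0.96-fold. Ube2l6 was 2.04-fold lower in LV (12.5 against 25.4 CPM; 1.33 to 3.19), with RV of library C at 47.4 CPM; it was lower in LV in 3 of 4 libraries. Among haemoglobin-poor cells Ube2l6 was at 8.71 CPM in LV and 8.98 CPM in RV, and without cells over 2% non-myocyte RNA it was 1.11-fold higher in LV; without library C it was 1.30-fold lower. Isg20 was at 18.7 and 21.7 CPM, within counting error. B2m, at 115 and 84.3 CPM, was 1.36-fold higher in LV (1.14 to 1.61).

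Bst2 was found in 14 cells. Its 45 UMIs gave 8.57 CPM in LA, 5.46 in LV and 7.70 in RV, and 0 in RA, where a count of 0 allows up to 6.38 CPM. Isg15, the protein that Ube2l6 conjugates, gave 1 UMI in each of 5 cells, 0.719 CPM (0.233 to 1.68) over all 4 chambers, and 1 of these 5 cells was haemoglobin-rich. Ube2l6 in the rich cells was at 94.4 CPM and Isg15 at 0.738 CPM.

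Other genes of the pathways were taken from lists drawn up with earlier results of these data known. Of the receptors, kinases and factors of interferon signalling, 0 of 6 measured genes were at least 1.5-fold higher and 2 lower in the rich atrial-labelled cells, and 2 of 14 higher and 4 lower in the rich ventricular-labelled cells. Over all genes the shares were 10.8% higher and 35.1% lower in the first comparison and 10.5% and 34.0% in the second, so these counts are near the background. Jak1 was 0.90-fold and 1.14-fold, and Ifngr2, a chain of the interferon gamma receptor, 0.91-fold and 0.98-fold in the 2 comparisons. Ifnar2, also among the 3 most abundant of that list, was at 0.30-fold and 1.06-fold. Among other interferon-stimulated genes, 3 of 6 were higher and 3 lower in the first and 5 of 18 higher and 6 lower in the second. Rsad2 (viperin, an antiviral enzyme) stood with Isg20 and Ube2l6: it was 15.7-fold higher (7.77 to 36.0; 145 against 9.22 CPM) in rich atrial-labelled and 3.82-fold higher (2.70 to 5.38; 66.8 against 17.5 CPM) in rich ventricular-labelled cells. Iigp1, an interferon-inducible GTPase, split by label, at 2.44-fold and 0.40-fold. Igtp, also among the 3 most abundant, was at 3.65-fold and 0.79-fold. Oasl2 was at 2.34 CPM in rich and 43.0 CPM in poor atrial-labelled cells.

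Other genes of class I presentation were mixed. In the rich ventricular-labelled cells 1 of 13 was higher and 7 were lower, and in the rich atrial-labelled cells 0 of 7 were higher and 4 lower, beside 34.0 and 35.1% of all genes lower in the 2 comparisons. Canx, Calr and Psme1, the most abundant of the list, were at 0.96, 0.87 and 0.90-fold in the rich ventricular-labelled cells, with intervals that held 1. H2-T23, a class I gene outside the classical pair, was at 1.08 CPM in rich and 9.29 CPM in poor ventricular-labelled cells. Tapbp (tapasin, which loads peptide) was 6.82-fold higher in LA than in RA, 188 against 27.7 CPM. Late erythroid genes were taken as the reference for haemoglobin-rich cells. In the rich atrial-labelled cells 11 of 13 were higher and 0 lower, and in the rich ventricular-labelled cells 8 of 14 were higher and 2 lower. Over all genes 10.8 and 10.5% were higher. The most abundant, Ank1, Epb41 and Fech, were at 1.40, 3.30 and 1.92-fold in the first comparison. In the second they were at 0.92, 1.90 and 1.33-fold. Slc4a1, the red cell anion exchanger, had 33 UMIs in rich and 1 in poor atrial-labelled cells. Alas2, the erythroid haem synthase, was 5.71-fold higher in rich ventricular-labelled cells.

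Over the 16 pools of chamber label and library, log2 levels of Ube2l6 correlated most, among 7139 genes, with those of Slc25a37 (Pearson r 0.89). Slc25a37 encodes mitoferrin, which brings iron into mitochondria. Gm15564 (0.80), Alas2 (0.80), Slit3 (0.77) and Ptk2 (0.76) ranked 2 to 5. The nearest to Isg20 was Hagh (0.82) and to B2m was Actb (0.93). With the summed haemoglobin genes r was 0.73 for Ube2l6, 0.43 for Isg20, -0.14 for B2m and -0.64 for H2-D1. H2-D1 and Ifitm3 went together (0.92). The pools share libraries and differ in depth, so these are descriptions.

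In the live and fixed study the members were rare. Only B2m reached 30 UMIs: 29 UMIs in 31 live cells (19.5 CPM; 13.1 to 28.1) and 21 in 35 fixed cells (8.66 CPM; 5.36 to 13.2), 2.26-fold lower after fixation (1.24 to 4.16), where 40.0% of all genes were at least 1.5-fold lower. H2-K1 had 12 and 14 UMIs (8.09 and 5.77 CPM), H2-D1 7 and 1, Ifitm3 1 and 1, Ube2l6 2 and 0, and Isg15 0 and 1. Isg20 had 0 UMIs in live cells, which allows up to 2.02 CPM, and 10 in fixed cells, all 10 from 1 cell. The haemoglobin share was 0.0524% among live and 0.00202% among fixed cells, and 1 live cell alone was above 2%, so the haemoglobin comparison could not be made there; that cell had 744 haemoglobin UMIs, 4 of H2-K1 and 0 of Isg20. Endothelial markers were at 0.00863 and 0.00549%. Depth differed (median gene UMIs 40367 and 77150), and its part in the B2m difference was not tested.

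Counting could blur some members. Among 50-base stretches of the last 500 bases of the transcript, 14.0% of those of Ifitm3 also occur in other genes, Ifitm1 and Ifitm2 among them, 10.6% of Ube2l6, 9.53% of H2-D1 and 0.443% of H2-K1, the last shared with H2-D1; Isg20, B2m and Bst2 shared none.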

How the data were processed

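UMI and read counts per gene and cell barcode were deposited by the authors for 2 pools of sorted mouse heart cells, each given as 1 sample, so no test between samples was possible. Per the submitters' processing notes, STAR 2.5.4b and featureCounts were used with GRCm38; how UMIs were collapsed, the strand setting and the annotation are not stated in those notes or labels. Chamber, library and fixation labels came from the authors' deposited cell tables, which also hold percent values (spike-in and mitochondrial shares) computed by the authors from those counts; these were not used for results. Symbols came from GENCODE M21 (24489 and 22648 IDs matched), and 45 barcodes without a label were left out.

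A cell was kept from 1000 gene UMIs and 500 genes up. UMIs were summed per pool and divided by nuclear-encoded UMIs. Ratios carry exact 95% Clopper-Pearson intervals and a count of 0 a limit of 3 counts, both for counting error only. A gene was measured with at least 30 UMIs in the pools compared, and called at 1.5-fold. For correlation over pools, genes needed 100 UMIs and 5 was added before log2. No doublet caller was run. Cells share plates and libraries, and fewer cells of a type cannot be told apart from less RNA per cell. The ratio was tested on simulated pool totals with counting error only. That test does not cover the uneven spread of UMIs over cells. The alternatives were another total, TMM factors (edgeR 4.0.16, R 4.3.3), equal cell weights, reads, other cell filters, and cells or libraries left out. All 8 members are named, with the 3 most abundant genes and the 1 with the largest ratio of each wider list; the members and lists were chosen with earlier results of these data known. The 0.1% and 0.5% marker thresholds were added after seeing the data. Python 3.11.15, pandas 2.3.3 and scipy 1.17.1 were used.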

Additional observations from a re-analysis of the deposited data

Results flagged for a closer look

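B2m was higher in haemoglobin-rich than in haemoglobin-poor cells of RA (ratio 2.16, 1.10 to 4.30) and lower in those of LA (0.272), LV (0.595) and RV (0.488), so the direction differed between labels; the difference itself was not tested. The RA values rest on 21 UMIs in 34 rich and 18 UMIs in 10 poor cells.

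In 3 cases a library value stood far from the other libraries of their label. Isg20 in RA of library D was at 485 CPM, from 16 UMIs in 8 cells. Ube2l6 was at 272 CPM in LA of library C, which holds 1 of the mesothelial-rich cells, and at 47.4 CPM in RV of library C. In all, 21 groups of 4 libraries were examined, and chance marks about 1 in 20.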

How the results depend on the processing

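Values here are log2 ratios, and a median is over the measured members. The median of the atrial-labelled to ventricular-labelled ratio was 0.90. It was 0.62 with equal cell weights, 1.16 after dropping every gene's top cell, 1.25 without cells over 2% non-myocyte RNA, 0.60 without cells over 0.1% marker RNA and -0.46 without cells over 0.5% mesothelial RNA. Leaving out 1 library at a time gave 0.74 to 1.44. Without the mesothelial-rich cells B2m was -0.32, H2-K1 -0.52, H2-D1 -1.24 and Ifitm3 -0.57. H2-D1 was -0.12 with equal weights and -0.20 without library B, and H2-K1 -0.12 without its top cell.

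The LA to RA median was 1.38. It was -0.0232 with equal weights, 2.31 on reads, 0.60 without top cells, 2.12 without haemoglobin-rich cells, 2.14 without non-myocyte cells, -0.19 without mesothelial-rich cells and 0.0607 without marker cells, and ran from 0.41 (without library C) to 1.90 over libraries left out. B2m was -1.34 and H2-K1 -0.15 with equal weights, -0.0128 and -0.39 without mesothelial-rich cells, and H2-K1 -0.00675 without marker cells. The LV to RV median was -0.0272. It was 0.51 on reads, 0.83 without non-myocyte cells and -0.95 without marker cells, and ran from -0.69 (without library A) to 0.70 (without library C). H2-D1 was -0.12 without its top cell, -0.0534 to 1.50 over libraries left out (lowest without A) and -0.29 without marker cells, and Ube2l6 0.15 without non-myocyte cells.

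In atrial-labelled cells the median rich to poor ratio was -1.04. It was 0.0771 with equal weights, -0.21 without top cells, -1.73 with the haemoglobin threshold at 1%, -0.16 at 5%, 0.89 without mesothelial-rich and 0.45 without marker cells, and ran from -1.41 to -0.35 (without library B). H2-K1 was 0.22 with equal weights, 0.13 without its top cell, -1.35 to 0.065 over libraries left out (highest without B), 0.24 at 5%, 0.83 without mesothelial-rich and 0.42 without marker cells. In those last 2 settings B2m was 0.41 and 0.28, H2-D1 0.33 and 0.33, and Ifitm3 0.95 and 0.48. In ventricular-labelled cells the median was -0.81. It was -0.37 without top cells, -0.38 at 5% and 0.16 without marker cells, and ran from -1.18 to -0.24 (without library C). Without marker cells H2-D1 was 0.16 and Bst2 0.84. Settings that leave cells out can also change the mix of labels, libraries and depth. The cause of a change was not tested for any setting.

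Isg20 and Ube2l6 kept their direction in 16 of 16 alternatives of the atrial-labelled to ventricular-labelled ratio and of both haemoglobin comparisons. They were picked from the first of these contrasts, so nothing is read from their kept direction there. The share of all genes that kept direction is not given. Within LV alone, Isg20 turned without marker cells. The fixed to live ratio of B2m ran from -1.24 to -0.68. No paired analysis was possible because the labels give each study 1 sample and no replicate number; each library holds all 4 chamber labels, and the values within libraries stand in the report as descriptions. Low UMI counts limit what can be said of Isg15 and Bst2, and of all members but B2m in the live and fixed cells.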

Other observations

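Gbp2, an interferon-inducible GTPase, was 11.9-fold higher in atrial-labelled than in ventricular-labelled cells (49.2 against 4.14 CPM; 7.31 to 19.9). Of the class II genes in the haemoglobin-rich ventricular-labelled cells, 2 of 4 measured were at least 1.5-fold higher and 0 lower, beside 10.5 and 34.0% of all genes. In the live and fixed study, 5 of 6 measured genes of interferon signalling were lower in fixed cells, Jak1 3.34-fold (26.4 against 88.3 CPM; 2.46 to 4.58), where 40.0% of all genes were.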
